A study of Mus musculus with 8 samples.

Results

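The genes described here are those by which the liver makes, burns and stores glucose. The group holds 45 genes of gluconeogenesis, glycolysis, glycogen, the lactate and pyruvate dehydrogenase steps, fructose entry and the pentose phosphate pathway, out of 56884 genes in the count tables. The list goes by pathway, and each symbol was matched to its Ensembl identifier through the GENCODE mouse annotation, where G6pc is also written G6pc1. All 45 were matched, and 44 passed the filter on low counts, the exception being Pgam1.

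The livers came from C57BL/6J females in which obesity was induced by diet (DIO), sampled at 18 months of age after an overnight fast. From the age of 2 months all mice ate a high-fat diet in which lipids gave 45%, carbohydrates 35% and proteins 20% of the energy, and after 4 months of it the groups were formed. The DIO mice (n = 3, replicates 1, 4 and 5) stayed on that diet, with added mixed tocopherols, and in the DIO + DHA mice (n = 5, replicates 1, 2, 4, 5 and 6) a fish oil concentrate took the place of 15% by weight of the lipids. That concentrate carried 683.4 mg of docosahexaenoic acid (DHA) and 46.7 mg of eicosapentaenoic acid (EPA) in 838.9 mg of n-3 fatty acids per g, along with the same tocopherols, so DHA was not the sole n-3 fatty acid that differed. No lean group on a standard diet was analysed here, each mouse gave 1 library, and the labels put all 8 libraries in batch 1. Values below are given in that order of replicates, in CPM (counts per M counts of the library, with library totals corrected by the TMM method). Since the reads come mainly from the 3′ ends of transcripts and were not divided by gene length, levels are compared between mice and never between genes.

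In the fasted state the liver releases glucose that it makes from lactate, amino acids and glycerol or frees from glycogen, and in the fed state it takes glucose up, burns it and stores it. The direction is set at a few opposed steps. Hexose kinases trap glucose and glucose-6-phosphatase frees it, phosphofructokinase and fructose bisphosphatase act against each other, pyruvate kinase opposes the detour through pyruvate carboxylase and Pepck, and glycogen synthase opposes glycogen phosphorylase. Many of these steps have a liver form and a muscle form encoded by different genes, so that the set of forms in an RNA sample also carries information on its tissues.

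RefSeq promoter windows of GRCm38.p6, 300 bases long, were found for 43 of the 45 genes, while the counts use GRCm39. Each window was searched on both strands for TGACGTCA (the cAMP response element through which fasting signals reach gluconeogenic genes), TTGTTTAC (a FoxO element) and CACGTG (an E-box, bound by ChREBP and clock factors among others). The cAMP response element was in 1 of 65 windows of these genes and in 1.79% of all 32851 RefSeq windows, and the FoxO element was in none of the 65 and in 1.23% of all. The E-box was in 9 of the 65 windows, of 9 genes, and in 7.15% of all. Those 9 genes were Fbp2, Pfkm, Ldha and Ppp1r3c, which were higher in the DIO + DHA libraries, Ldhd and Khk, which were lower, and Pcx, Pfkfb3 and Pdk2, which were not called. Such a match says that these letters are present and no more. Variants of the elements were not searched, so a window without a match may still hold one. The Pck1 window, for example, holds TTACGTCA, which was not counted. The 4 windows below are shown because their genes differed between the groups and stand for a regulator, the lactate step, fructose entry and glycogen, with matches to the searched letters in capitals. Ppargc1a (chr5:51567676-51567975, minus strand) holds none of the searched motifs, Ldha (chr7:46845554-46845853, plus strand) holds E-boxes at 145 and 48 bases and the cAMP response element at 12 bases before its start site, and Khk (chr5:30921309-30921608, plus strand) and Ppp1r3c (chr19:36736555-36736854, minus strand) hold an E-box at 71 and 104 bases before theirs.
Ppargc1a: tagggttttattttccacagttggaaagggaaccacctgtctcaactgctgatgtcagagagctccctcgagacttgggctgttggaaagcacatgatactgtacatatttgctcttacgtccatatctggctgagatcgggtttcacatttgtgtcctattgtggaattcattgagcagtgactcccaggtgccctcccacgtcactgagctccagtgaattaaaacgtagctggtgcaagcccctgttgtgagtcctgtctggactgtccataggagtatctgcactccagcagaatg
Ldha: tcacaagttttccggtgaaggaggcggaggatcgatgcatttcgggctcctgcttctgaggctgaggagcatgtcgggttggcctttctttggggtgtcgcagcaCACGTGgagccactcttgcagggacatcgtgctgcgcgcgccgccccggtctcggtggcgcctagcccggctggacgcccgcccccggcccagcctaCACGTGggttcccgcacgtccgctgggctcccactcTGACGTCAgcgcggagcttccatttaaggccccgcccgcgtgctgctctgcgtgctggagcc
Khk: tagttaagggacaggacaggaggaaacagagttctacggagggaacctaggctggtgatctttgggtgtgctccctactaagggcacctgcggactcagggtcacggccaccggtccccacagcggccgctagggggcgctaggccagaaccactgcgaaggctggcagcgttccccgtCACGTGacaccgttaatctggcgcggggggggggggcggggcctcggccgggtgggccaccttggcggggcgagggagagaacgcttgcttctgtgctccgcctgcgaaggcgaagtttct
Ppp1r3c: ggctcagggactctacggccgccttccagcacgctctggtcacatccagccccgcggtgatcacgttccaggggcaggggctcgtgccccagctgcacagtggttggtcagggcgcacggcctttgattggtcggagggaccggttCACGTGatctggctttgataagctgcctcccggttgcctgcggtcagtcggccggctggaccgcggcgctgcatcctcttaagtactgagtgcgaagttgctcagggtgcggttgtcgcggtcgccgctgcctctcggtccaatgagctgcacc

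Under DHA, 14 of the 44 tested genes were higher and 6 were lower at an adjusted p under 0.05 (quasi-likelihood test of edgeR, adjusted after Benjamini and Hochberg over all 12412 tested genes). That is 31.8% higher and 13.6% lower, against 7.89% and 7.28% of all tested genes. In 13 of the 44 the lowest DIO + DHA library exceeded the highest DIO library, against 9.54% of all tested genes, and in 7 the highest lay under the lowest, against 8.88%. The median log2 fold change of the 44 was 0.015, and that of all tested genes 0.001, so the genes moved in both directions rather than as a group. Higher were the coactivator Ppargc1a, G6pc and Fbp2 of gluconeogenesis, Hk2, Pfkm, Aldoa, Gapdh, Pgam2 and Eno3 of glycolysis, Ldha and Pdk4 around pyruvate, and Gys2, Ppp1r3c and Ppp1r3g of glycogen. Lower were Gckr, Ldhd, Khk, Pygl, Gbe1 and Ppp1r3b. Of these, Fbp2 and Pgam2 passed the filter through the DIO + DHA group alone, so they could hardly enter the count without being higher.

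Marker genes of other tissues and cell types differed between the groups, and their summed levels are set beside these counts. The summed level of 38 listed skeletal muscle genes was 118 to 125 CPM in the DIO libraries and 1868 to 2001 CPM in the DIO + DHA libraries. All 36 of them that were tested were higher, though 19 of these passed the filter through the DIO + DHA group alone, and Mb, Casq1, Cacna1s, Trim63, Eef1a2 and Myod1 had no count in any DIO library. In bulk RNA, a different number of cells of a type and a different amount of RNA per cell cannot be told apart. The 8 genes known for strong expression in muscle (Eno3, Pgam2, Fbp2, Pfkm, Aldoa, Hk2, Pkm and Ppp1r3c) had a median log2 fold change of 1.17, and 7 of them were higher and none lower. Of these 8, Fbp2 and Pgam2 passed the filter through the DIO + DHA group alone. The 36 other tested genes had a median of -0.05. They were not chosen for absence from muscle, and Ppargc1a and Pdk4, which muscle also transcribes, are among them. Of the 36, 7 were higher (19.4%) and 6 lower (16.7%), against 7.89% and 7.28% of all tested genes. Macrophage genes moved the other way, from 642 to 712 CPM summed over 10 genes in the DIO libraries to 379 to 412.5 CPM, with 8 lower and 1 higher. T cell genes (6 genes, 17.2 to 21.9 CPM against 8.67 to 11.4 CPM) and endothelial genes (6 genes, 156 to 172.5 CPM against 109.5 to 135 CPM) were lower in sum too, with 2 called lower in each list. The 12 hepatocyte genes summed to 112445 to 119461 CPM and 113586 to 127018 CPM, ranges that overlap, and 3 of them were higher and 3 lower. Fat genes (8 genes, 9.05 to 14.1 CPM against 90.2 to 106 CPM) and genes of stratified squamous epithelium (10 genes, 0.563 to 1.62 CPM against 74.1 to 84.9 CPM) were higher too. Single genes weigh in these sums. Csrp3 of the muscle list had a mean of 47.8 CPM in the DIO libraries, and Cidec of the fat list one of 48.9 CPM in the DIO + DHA libraries. Whether the marker transcripts came from other tissues, and what part such tissues had in the values below, was not tested.

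**Figure D1:**
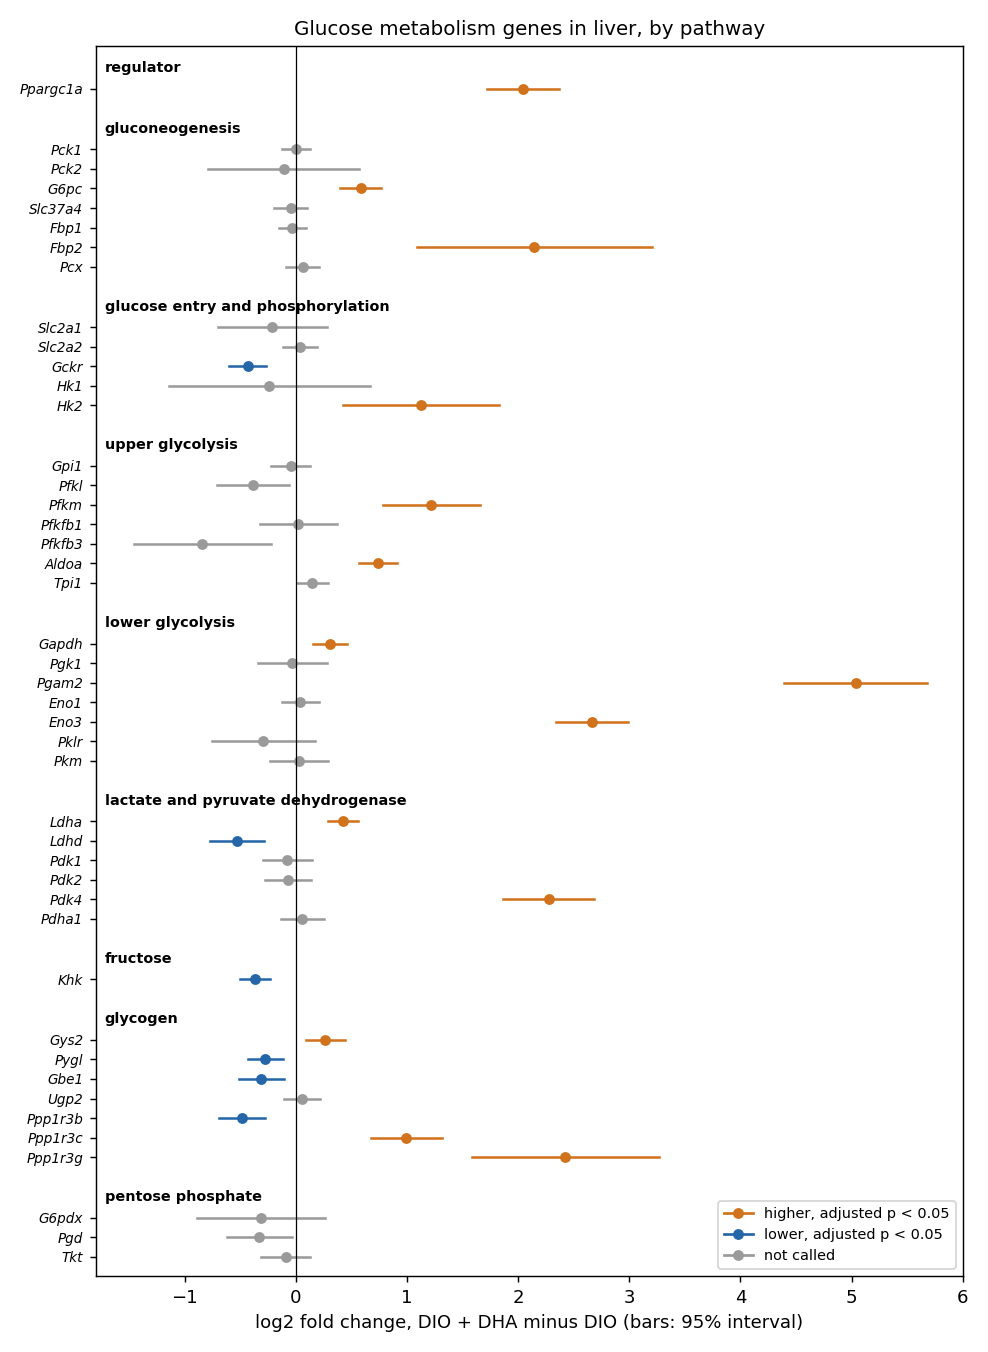
Log2 fold change between the DIO + DHA (n = 5) and DIO (n = 3) groups for the 44 tested genes, ordered by pathway. Points are edgeR estimates, bars their 95% intervals, orange genes were higher and blue genes lower at an adjusted p under 0.05, and grey genes were not called. The estimates run from -0.84 (Pfkfb3) to 5.04 (Pgam2), and those above 1 belong to Ppargc1a, Fbp2, Hk2, Pfkm, Pgam2, Eno3, Pdk4 and Ppp1r3g.

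The regulator in the group, Ppargc1a (ENSMUSG00000029167.14, chromosome 5 of GRCm39, 51611592 to 51725068), encodes PGC-1α, a transcriptional coactivator that is induced in the fasted liver and drives mitochondrial and gluconeogenic genes with its partner factors. It was at 6.75, 7.93 and 9.23 CPM in the DIO libraries and at 33.5, 41.9, 36.8, 31.1 and 30.1 CPM in the DIO + DHA libraries. The lowest DIO + DHA library held more than 3 times the level of the highest DIO library, and the rise was 4.13-fold (log2 fold change 2.04, standard error 0.16, edgeR adjusted p = 7e-16). Ppargc1a is also transcribed in skeletal muscle and brown fat, whose markers were higher in the same libraries, and their part in its level was not tested.

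Among the 7 genes of gluconeogenesis, 2 were higher (28.6%, against 7.89% of all tested genes) and none lower (against 7.28%). The median log2 fold change was 0.005. Pck1, the cytosolic Pepck that commits oxaloacetate to glucose, was at 890, 891 and 864 CPM in the DIO libraries and 924, 891, 829.5, 846 and 932 CPM in the DIO + DHA libraries. The ranges overlapped, and the 95% interval of its log2 fold change ran from -0.12 to 0.13 around an estimate of 0.01 (edgeR adjusted p = 0.969). G6pc (ENSMUSG00000078650.3, chromosome 11 of GRCm39, 101258387 to 101268729), the catalytic subunit of glucose-6-phosphatase in the last step before glucose leaves the cell, was at 55.1, 53.9 and 52.2 CPM in the DIO libraries and 79.3, 82.8, 80.3, 82.9 and 76.7 CPM in the DIO + DHA libraries. The libraries of the groups lay apart, and the level was 53.7 ± 1.49 CPM in DIO mice (SD, n = 3) and 80.4 ± 2.604 CPM in DIO + DHA mice (SD, n = 5), a 50.1% rise (log2 fold change 0.59, standard error 0.09, edgeR adjusted p = 1.35e-06). Its partner Slc37a4, which carries glucose-6-phosphate into the endoplasmic reticulum, had a log2 fold change of -0.05 (interval -0.20 to 0.10, edgeR adjusted p = 0.776).

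The other liver enzymes of the pathway stood with Pck1. Fbp1, the liver fructose bisphosphatase, was at 1655, 1692 and 1809 CPM and 1623, 1703, 1754, 1678 and 1662 CPM in the DIO and DIO + DHA libraries. Pcx, the mitochondrial pyruvate carboxylase, was at 256, 247 and 279 CPM and 286, 243, 265, 286 and 279.7 CPM. In both genes the groups overlapped, with log2 fold changes of -0.03 (interval -0.15 to 0.09, edgeR adjusted p = 0.823) and 0.06 (interval -0.09 to 0.21, edgeR adjusted p = 0.678). Pck2, the mitochondrial Pepck, held 1.87 to 3.35 CPM over the 8 libraries and was not called (log2 fold change -0.11, interval -0.79 to 0.57). Of the 80-base stretches at its 3′ end, 10.5% also occur in annotated transcripts of genes at other loci. Fbp2, the muscle fructose bisphosphatase, was at 0.563, 0.361 and 0.7098 CPM in the DIO libraries and 2.98, 3.02, 2.85, 1.41 and 2.402 CPM in the DIO + DHA libraries. It passed the filter through the DIO + DHA group alone, with 7 counts in all DIO libraries and 49 in the others, a ratio of 4.61 with an exact 95% counting interval of 2.08 to 12.1, and its fitted log2 fold change was 2.15 (edgeR adjusted p = 0.00213). By limma-voom, Fbp2 did not reach a log-odds B above 0.

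**Figure D2:**
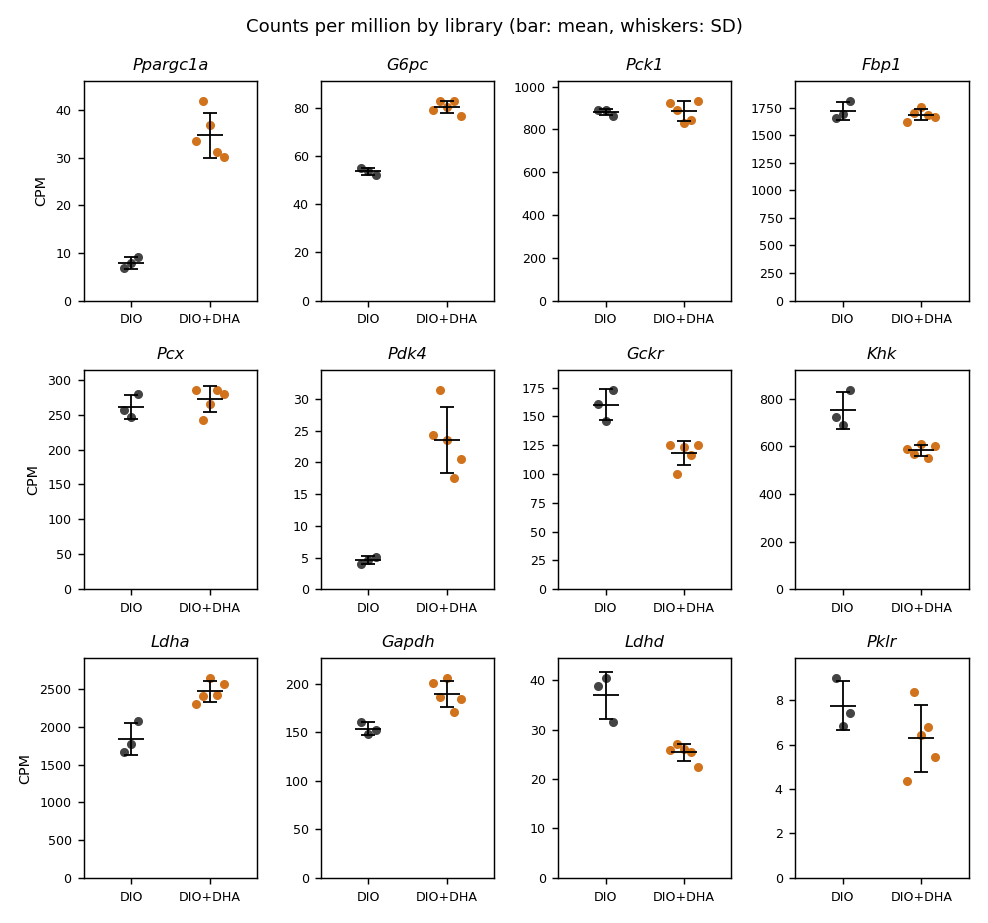
CPM in each library for 12 genes of the group, with DIO mice in grey and DIO + DHA mice in orange. Long bars are means and whiskers SDs (n = 3 and n = 5), and each panel has its own axis from 0. The groups lie apart for all genes shown except Pck1, Fbp1, Pcx and Pklr.

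At the entry of glucose, Gckr was lower and Hk2 higher among 5 genes (20% each, against 7.28% and 7.89% of all tested genes). The median log2 fold change was -0.21. Gckr (ENSMUSG00000059434.10, chromosome 5 of GRCm39, 31454787 to 31484658) encodes a regulatory protein of glucose phosphorylation in the hepatocyte. It was at 161, 146 and 173 CPM in the DIO libraries and 125, 99.9, 124, 117 and 125 CPM in the DIO + DHA libraries. No library of the DIO + DHA group reached the lowest DIO library, and the level fell by 0.43 on the log2 scale (standard error 0.08, edgeR adjusted p = 4.6e-05). Slc2a2, the GLUT2 transporter through which glucose crosses the hepatocyte membrane either way, was at 154, 174 and 183 CPM and 176, 177, 173, 172 and 184 CPM. Its ranges overlapped, and the log2 fold change was 0.04 (interval -0.11 to 0.19, edgeR adjusted p = 0.811).

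The hexokinases of high affinity were near the limit of detection. Hk2, a form typical of muscle and fat, was at 0.563, 1.26 and 3.19 CPM in the DIO libraries and 4.36, 3.69, 3.57, 4.45 and 5.24 CPM in the DIO + DHA libraries, from 26 and 86 counts in all. Its groups did not overlap, the ratio of summed counts was 2.18 (exact 95% counting interval 1.39 to 3.52) and the log2 fold change 1.12 (edgeR adjusted p = 0.0186). The call rested on single libraries, since the value was 0.96 without DIO replicate 1 (edgeR adjusted p = 0.0629), 0.81 without DIO replicate 4 (0.209) and 1.98 without DIO replicate 5 (0.00167). Hk1, the widespread form, held 0.218 to 2.35 CPM, and Slc2a1, the GLUT1 transporter, 3.75 to 7.86 CPM. Neither was called, with log2 fold changes of -0.24 and -0.21 and intervals from -1.14 to 0.67 and from -0.70 to 0.28.

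In upper glycolysis, from glucose-6-phosphate to the triose phosphates, Pfkm and Aldoa of 7 genes were higher (28.6%, against 7.89% of all tested genes). None was lower (against 7.28%), and the median log2 fold change was 0.02. Pfkl, the liver phosphofructokinase, was at 12.9, 20.6 and 26.4 CPM in the DIO libraries and 14.1, 17.1, 13.2, 20.4 and 16.8 CPM in the DIO + DHA libraries. The groups overlapped through DIO replicate 1, and the log2 fold change of -0.39 was not called (edgeR adjusted p = 0.104), although it was -0.51 without that library (0.017) and -0.49 without DIO + DHA replicate 5 (0.0402). Pfkm, the muscle phosphofructokinase, was at 5.06, 7.21 and 3.73 CPM and 12.5, 15.1, 11.4, 13.6 and 10.7 CPM. Its groups lay apart, and the level rose 2.33-fold (log2 fold change 1.22, standard error 0.22, edgeR adjusted p = 1.95e-05), with 10.7% of its exon bases also inside other genes.

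Aldoa, the aldolase of muscle and red blood cells, was at 83.3, 97.2 and 109 CPM in the DIO libraries and 165, 168, 158, 175 and 154 CPM in the DIO + DHA libraries, again with no overlap (log2 fold change 0.74, standard error 0.08, edgeR adjusted p = 2.61e-10). Pfkfb3, which makes the activator of phosphofructokinase in many tissues, lay just outside the threshold. It was at 3.38, 4.51 and 5.32 CPM and 3.37, 3.02, 1.78, 2.81 and 1.75 CPM, with every DIO + DHA library below every DIO library, though replicate 1 of each group was nearly level, and a log2 fold change of -0.84 (edgeR adjusted p = 0.0542). It passed without DIO replicate 1 (-0.92, adjusted p = 0.0476) and without DIO + DHA replicate 1 (-0.99, 0.039). Pfkfb1, the form of liver and muscle, and Gpi1, the glucose-6-phosphate isomerase, were not called (0.02 and -0.05 on the log2 scale). Tpi1, the triose phosphate isomerase, had a log2 fold change of 0.15 (edgeR adjusted p = 0.162), which was 0.23 and called without DIO replicate 5 (0.0428).

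In lower glycolysis, 3 of 7 tested genes were higher (42.9%, against 7.89% of all tested genes) and none lower (against 7.28%). Their median log2 fold change was 0.04. Gapdh, which makes the first high-energy phosphate of the pathway, was at 161, 148 and 152 CPM in the DIO libraries and 200.3, 186, 206, 171 and 184 CPM in the DIO + DHA libraries. Its groups did not overlap and the rise was 23.7% (log2 fold change 0.31, standard error 0.08, edgeR adjusted p = 0.00278), but 82.7% of the 80-base stretches at its 3′ end occur at other loci, Gapdh pseudogenes among them, so its reads from those stretches could be left out by unique alignment. By limma-voom, Gapdh did not reach a B above 0. Pgk1, the phosphoglycerate kinase, and Eno1, the widespread enolase, had log2 fold changes of -0.03 and 0.04 (edgeR adjusted p = 0.934 and 0.829). For Eno1, 59.1% of the 3′ stretches are shared, among others with Eno1b.

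The muscle forms of this stretch had the largest changes of the 44 genes. Eno3 (ENSMUSG00000060600.16, chromosome 11 of GRCm39, 70548028 to 70553339), the enolase of muscle, was at 6.75, 7.21 and 6.21 CPM in the DIO libraries and 43.04, 38.5, 55.3, 38.9 and 39.96 CPM in the DIO + DHA libraries. The groups lay far apart, and the rise was 6.35-fold (log2 fold change 2.67, standard error 0.16, edgeR adjusted p = 2.82e-20). Pgam2 (ENSMUSG00000020475.4, chromosome 11 of GRCm39, 5751640 to 5753733), the phosphoglycerate mutase of muscle, was at 1.12, 0.541 and 0.355 CPM in the DIO libraries and 20.8, 19.4, 13.9, 18.03 and 20.5 CPM in the DIO + DHA libraries. It passed the filter through the DIO + DHA group alone, and its 7 counts against 373 gave a ratio of 35.1 with an exact 95% counting interval of 16.9 to 87.9 (fitted log2 fold change 5.04, edgeR adjusted p = 2.09e-19). Pgam1, the widespread mutase, had 2 to 7 counts in a library and was not tested. At the last step, Pklr, the liver pyruvate kinase and a carbohydrate-induced gene, was at 9.001, 6.85 and 7.45 CPM and 4.36, 8.38, 6.42, 6.79 and 5.46 CPM in the DIO and DIO + DHA libraries. These ranges overlapped, and the log2 fold change was -0.29 (interval -0.76 to 0.18, edgeR adjusted p = 0.48), with 22% of its exon bases inside an antisense gene. Pkm, the pyruvate kinase of muscle and other tissues, did not follow the other muscle forms, at 20.2 to 30.7 CPM in the DIO group and 24.9 to 30.7 CPM in the DIO + DHA group (log2 fold change 0.03, interval -0.23 to 0.29).

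Where pyruvate meets lactate and the mitochondrion, Ldha and Pdk4 were higher and Ldhd was lower among 6 genes. That is 33.3% and 16.7%, against 7.89% and 7.28% of all tested genes, and the median log2 fold change was -0.01. Ldha (ENSMUSG00000063229.16, chromosome 7 of GRCm39, 46490899 to 46505051), the A subunit of lactate dehydrogenase, was at 1662, 1780 and 2076 CPM in the DIO libraries and 2300, 2413, 2646, 2429 and 2566 CPM in the DIO + DHA libraries. The groups lay apart, and the level was 1840 ± 213 CPM in DIO mice (SD, n = 3) and 2471 ± 136 CPM in DIO + DHA mice (SD, n = 5), a 34.2% rise (log2 fold change 0.42, standard error 0.07, edgeR adjusted p = 1.1e-06). Ldhd, which oxidises the D form of lactate in mitochondria, went the other way, at 38.8, 40.4 and 31.6 CPM and 25.8, 27.1, 26.04, 25.5 and 22.5 CPM. It fell by 0.53 on the log2 scale (standard error 0.12, edgeR adjusted p = 0.000849), and by 0.42 without DIO replicate 4, where the call was lost (0.0504). Since 42.2% of its exon bases overlap the antisense gene Znrf1 and counting was unstranded, some of its reads may have been left out. For Ldha, the part of muscle RNA in its level was not tested.

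Pdk4 (ENSMUSG00000019577.7, chromosome 6 of GRCm39, 5483351 to 5496309), a kinase that shuts pyruvate dehydrogenase when fatty acids are the fuel and a target of PPAR factors, was at 3.94, 4.69 and 5.15 CPM in the DIO libraries and 24.4, 31.5, 23.6, 17.6 and 20.5 CPM in the DIO + DHA libraries. The lowest DIO + DHA library was more than 3 times the highest DIO library, and the rise was 4.84-fold (log2 fold change 2.27, standard error 0.20, edgeR adjusted p = 9.85e-14). Its relatives Pdk1 and Pdk2 and the enzyme's subunit Pdha1 were not called, with log2 fold changes of -0.07, -0.07 and 0.06 and intervals within -0.29 and 0.25. Pdk4 is also abundant in skeletal muscle of fasted animals, and the part of muscle RNA in its level was not tested.

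Khk (ENSMUSG00000029162.16, chromosome 5 of GRCm39, 31078775 to 31088592), ketohexokinase, phosphorylates fructose and so lets it into glycolysis below phosphofructokinase. It was at 722, 689.9 and 837 CPM in the DIO libraries and 588, 566, 608, 551 and 601 CPM in the DIO + DHA libraries. All DIO + DHA libraries lay below all DIO libraries, and the level fell by 22.4% (log2 fold change -0.37, standard error 0.07, edgeR adjusted p = 2.68e-05).

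The glycogen genes went both ways, with 3 of 7 higher and 3 lower (42.9% each, against 7.89% and 7.28% of all tested genes). Their median log2 fold change was 0.06, and the calls of Gys2, Pygl and Gbe1 did not hold without single libraries. Gys2, the liver glycogen synthase, was at 112, 89.8 and 99.01 CPM in the DIO libraries and 108, 117, 132, 122 and 117 CPM in the DIO + DHA libraries. The groups overlapped through DIO replicate 1 and DIO + DHA replicate 1, and the log2 fold change of 0.27 (edgeR adjusted p = 0.0238) lost its call without DIO replicate 4 (0.20, adjusted p = 0.239), DIO replicate 5 (0.28, 0.0553) or DIO + DHA replicate 4 (0.22, 0.102), and with DESeq2 (0.0682). Pygl, the liver glycogen phosphorylase, was at 151, 159.8 and 146 CPM and 137, 111, 134, 121 and 128 CPM. Its groups lay apart (log2 fold change -0.27, standard error 0.08, edgeR adjusted p = 0.0108), and the call was lost without DIO replicate 4 (-0.23, adjusted p = 0.123).

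Gbe1, the branching enzyme, was at 54.01, 52.6 and 53.6 CPM in the DIO libraries and 40.7, 47.6, 36.8, 43.8 and 45.9 CPM in the DIO + DHA libraries. The groups did not overlap, but the adjusted p of 0.0282 by edgeR for a log2 fold change of -0.31 became 0.0617, 0.0932 and 0.114 without DIO replicates 1, 4 and 5, 0.076 and 0.0706 without DIO + DHA replicates 1 and 4, where the change was -0.31 to -0.28, and 0.0866 with DESeq2. Ugp2, which makes the UDP-glucose that both glycogen and glucuronides are built from, had a log2 fold change of 0.05 (interval -0.11 to 0.22).

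The subunits that bring protein phosphatase to glycogen, and so favour synthesis, moved in opposite directions. Ppp1r3b (ENSMUSG00000046794.10, chromosome 8 of GRCm39, 35842893 to 35855293), the most studied of them in liver, was at 65.3, 52.6 and 56.2 CPM in the DIO libraries and 39.3, 47.2, 35.3, 41.5 and 40.2 CPM in the DIO + DHA libraries. It fell by 0.48 on the log2 scale (standard error 0.10, edgeR adjusted p = 0.000389), with no overlap. Ppp1r3c, expressed in liver, muscle and fat, was at 10.1, 11.5 and 10.8 CPM and 22.6, 18.4, 23.6, 24.4 and 20.5 CPM, a 1.99-fold rise with no overlap (log2 fold change 1.00, standard error 0.16, edgeR adjusted p = 2.07e-06). Ppp1r3g (ENSMUSG00000050423.12, chromosome 13 of GRCm39, 36142822 to 36154371), a form known for its induction in the fasted liver, was at 0, 0.902 and 1.06 CPM in the DIO libraries and 5.36, 4.36, 3.92, 3.04 and 6.12 CPM in the DIO + DHA libraries. It was present in every DIO + DHA library at more than 2 times the highest DIO level, and 11 against 92 counts gave a ratio of 5.51 with an exact 95% counting interval of 2.94 to 11.4 (fitted log2 fold change 2.42, edgeR adjusted p = 1.04e-05).

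**Figure D3:**
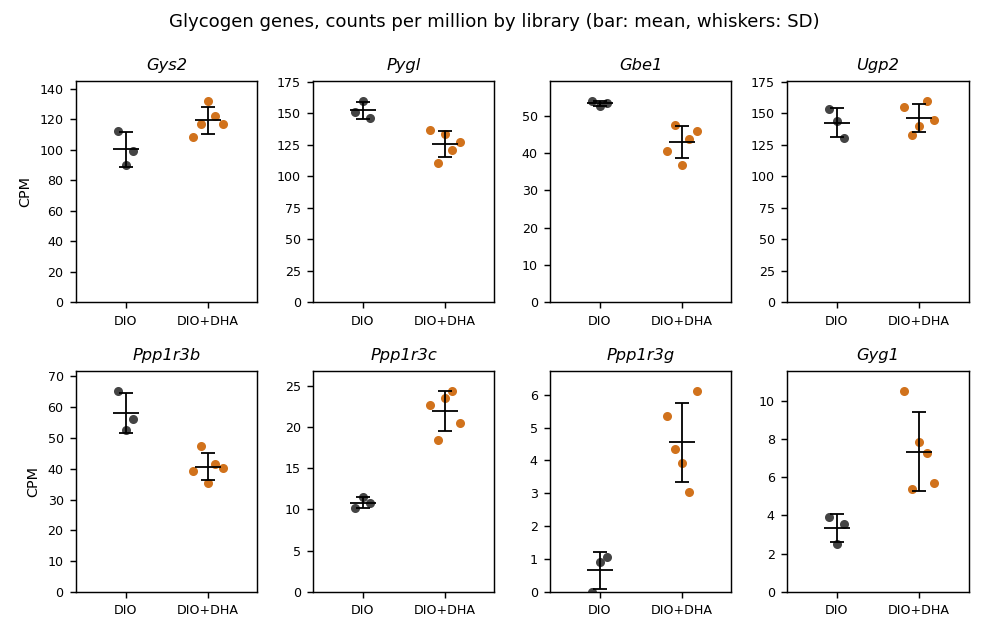
CPM in each library for the 7 glycogen genes of the group and Gyg1, the glycogen primer, with DIO mice in grey and DIO + DHA mice in orange. Long bars are means and whiskers SDs (n = 3 and n = 5), and axes start at 0. Pygl, Gbe1 and Ppp1r3b lie lower and Ppp1r3c and Ppp1r3g higher in all 5 DIO + DHA libraries, while Gys2 and Ugp2 overlap.

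None of the 3 pentose phosphate genes was called. G6pdx and Pgd, the steps that yield NADPH, had log2 fold changes of -0.31 (interval -0.89 to 0.26, edgeR adjusted p = 0.558) and -0.33 (interval -0.62 to -0.03, edgeR adjusted p = 0.138), and Tkt, the transketolase, one of -0.09 (interval -0.31 to 0.13, edgeR adjusted p = 0.676). For G6pdx, 13.6% of the exon bases lie in an antisense gene. Seen against the threshold, the called gene with the largest adjusted p was Gbe1 at 0.0282 and the next below the line were Pfkfb3 at 0.0542, Pfkl at 0.104, Pgd at 0.138 and Tpi1 at 0.162, all by edgeR.

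Ratios of opposed enzymes within a library set these changes side by side, and they carry no test because the pairs were chosen with results known. The log2 ratio of Pygl to Gys2 was 0.43, 0.83 and 0.56 in the DIO libraries and 0.34, -0.08, 0.02, -0.02 and 0.13 in the DIO + DHA libraries. It was lower in every DIO + DHA library and 0.693 times the DIO ratio in the mean. The ratios of Fbp1 to Pfkl and of Pck1 to Pklr overlapped between the groups, with mean shifts of 0.22 and 0.33 on the log2 scale. Of the 3 pairs, the groups lay apart in that of glycogen alone.

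**Figure D4:**
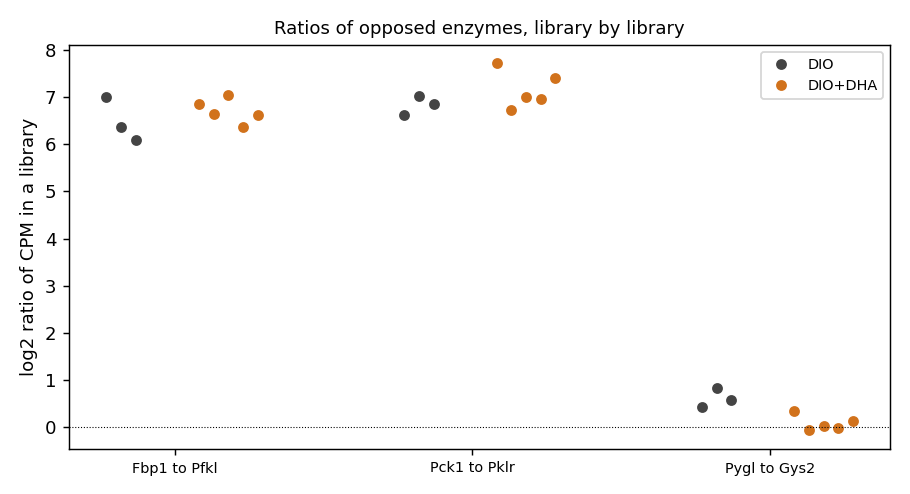
Log2 ratio of CPM within each library for 3 pairs of opposed enzymes, with DIO mice in grey (n = 3) and DIO + DHA mice in orange (n = 5). The ratio of Pygl to Gys2 is at 0.43 or more in every DIO library and at 0.34 or less in every DIO + DHA library, and the other pairs overlap.

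Liver and muscle forms of the same step were set beside each other. In the pairs Fbp1 and Fbp2, Pfkl and Pfkm, and Eno1 and Eno3, the liver or widespread form was not called and the muscle form rose 2.33-fold to 6.35-fold. The same held outside the group for transporters, where Slc2a4, the GLUT4 of muscle and fat, had 3 counts in the DIO libraries and 53 in the others, a ratio of 11.6 with an exact 95% counting interval of 3.77 to 58.2 (edgeR adjusted p = 4.16e-05). Pygm, the muscle phosphorylase, had 12 against 333 counts (ratio 18.3, interval 10.3 to 35.7, edgeR adjusted p = 2.26e-17) while Pygl fell. Slc2a4 and Pygm passed the filter through the DIO + DHA group alone. Gys1, the muscle synthase, was at 0.563, 1.08 and 0.887 CPM against 1.78, 4.02, 4.64, 1.41 and 2.18 CPM, a log2 fold change of 1.46 (edgeR adjusted p = 0.0291) whose call was lost without any single DIO library (1.38 to 1.66, adjusted p from 0.057 to 0.114) and without DIO + DHA replicates 2 (1.30, 0.0829) or 4 (1.24, 0.11).

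**Figure D5:**
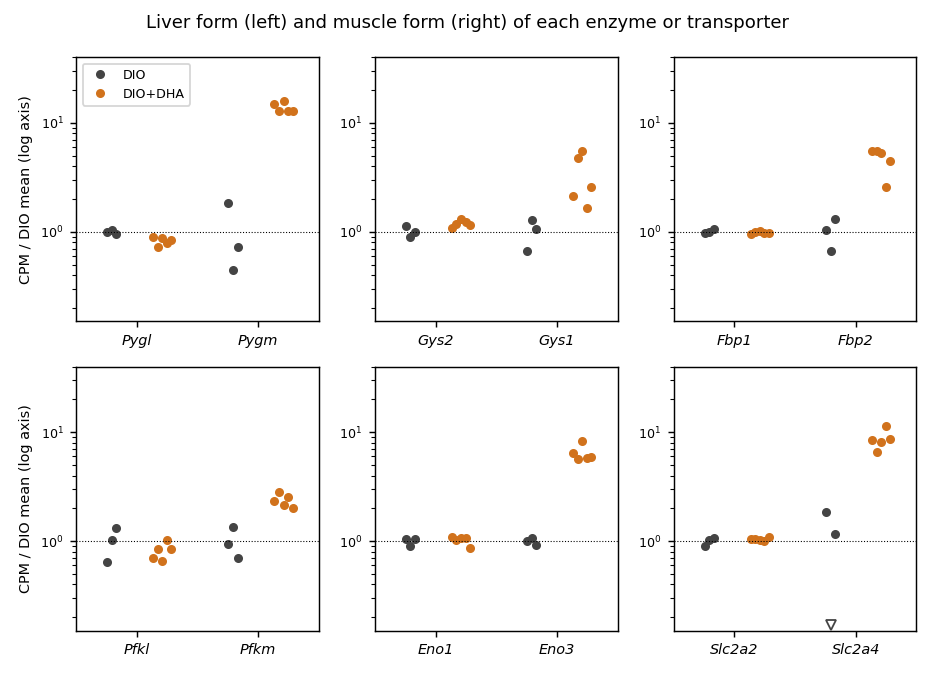
CPM divided by the mean of the DIO group, on a log axis, for the liver form (left) and the muscle form (right) of 6 enzymes or transporters, with DIO mice in grey (n = 3) and DIO + DHA mice in orange (n = 5). The open triangle marks a DIO library with no count of Slc2a4. Muscle forms lie above the dotted line at 1 in all DIO + DHA libraries. Among the liver forms, Gys2 and Slc2a2 also lie above it in all 5, Slc2a2 narrowly, and Pygl lies below it in all 5.

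A wider list of 86 further genes of glucose metabolism and its control had 76 tested members. Of these, 13 were higher (17.1%) and 9 lower (11.8%), against 7.89% and 7.28% of all tested genes. The median change was -0.05 on the log2 scale. The 13 include Slc2a4 and Pygm, which passed the filter through the DIO + DHA group alone, and also Gys1 and Ldhb. This list was not split by expression in muscle. Hk3, a hexokinase of myeloid cells, fell by 2.07 on the log2 scale (edgeR adjusted p = 0.000381), from 46 to 16 counts, having passed the filter through the DIO group alone, in libraries where the macrophage genes were lower too. Ldhb, the lactate dehydrogenase subunit of heart and oxidative muscle, rose by 3.03 (edgeR adjusted p = 8.45e-23), with 3.94, 5.23 and 6.74 CPM against 49.2, 51.6, 46.4, 40.8 and 45.0 CPM. Gyg1, the primer of glycogen, rose by 1.22 (edgeR adjusted p = 0.000824). Got1, the cytosolic aspartate aminotransferase, which interconverts aspartate and oxaloacetate, rose from 127, 138 and 139 CPM to 259.9, 246, 273, 245 and 277 CPM (log2 fold change 0.94, edgeR adjusted p = 3.62e-15). Slc16a1, the lactate and pyruvate carrier MCT1, rose by 0.80 (edgeR adjusted p = 2.03e-07), with all 5 libraries at 45.9 to 48.5 CPM above the DIO range of 23.1 to 32.6 CPM.

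Of 17 regulators on that list, 1 was higher (5.88%) and 2 were lower (11.8%), against 7.89% and 7.28% of all tested genes, so neither count stood far from the background. Cebpb, a factor of the acute phase response and of gluconeogenic genes, fell by 1.05 on the log2 scale, from 191 to 200.3 CPM in the DIO libraries to 85.8 to 100.3 CPM (edgeR adjusted p = 5.14e-17). Hnf4a, which maintains hepatocyte identity and works with PGC-1α, fell by 0.53, from 233 to 254 CPM to 156 to 178 CPM (edgeR adjusted p = 7.12e-08). Irs2, the insulin receptor substrate that rises in fasting, had a log2 fold change of 0.63 (edgeR adjusted p = 0.0116), with overlap through DIO + DHA replicate 4, and the call was lost without DIO replicate 4 (0.55, adjusted p = 0.107), DIO replicate 5 (0.62, 0.0588) or DIO + DHA replicate 1 (0.54, 0.058). Mlxipl, which encodes ChREBP, Foxo1 and Creb3l3 were not called, with log2 fold changes of -0.22, -0.29 and -0.01 (edgeR adjusted p = 0.109, 0.13 and 0.962). Ppargc1a rose in libraries where the transcript of its partner Hnf4a was lower and that of Pck1 differed by less than the spread between mice.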

How the data were processed

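Poly(A) RNA of 8 livers was sequenced by a SCRB-seq protocol that enriches 3′ ends. The authors aligned reads to GRCm39 with STAR 2.7.9a, checked them with FastQC 0.11.8, counted them on exons of GENCODE mouse release 33 genes with featureCounts 1.6.0, and deposited whole-number counts without normalization. Counting used no strand, and reads with several alignments or in shared exons were left out, the defaults of the commands in the file headers. It is not given whether reads of the same molecular identifier were merged, and intervals from counts cover counting error only.

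Libraries held 1723800 to 5690347 counts, the lowest in DIO replicate 1. A gene with under 5 counts in more than 50% of libraries was dropped where this held in both groups, which left 12412 of 56884 genes. Groups came from the sample titles. TMM scaling and glmQLFTest of edgeR 4.0.16 (R 4.3.3, robust dispersions, group as the only term) were fitted on the whole table with Benjamini-Hochberg adjustment, and calls were made at an adjusted p under 0.05. Intervals are at 95%. The script was tested on simulated data. Besides age and diet group, titles give each mouse only a number. The p-values rest on the spread between mice within a group. Mice shared cages and the labels do not name them, so a cage effect common to a group cannot be told apart from diet.

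The genes, the wider list and the marker lists were chosen with earlier results of these data known. Every gene of the group is named. Values in each library are given for called genes and for Pck1, Fbp1, Pcx, Slc2a2, Pfkl and Pklr, and also for Pfkfb3, chosen after its values were seen as the nearest to the threshold. Genes of the wider list are named where called with an absolute log2 fold change of at least 0.5, along with Mlxipl, Foxo1 and Creb3l3, and some genes that this rule covers are not reported here. Of the 87 symbols of the wider list, 86 matched the annotation. Alternatives covered scaling, the tests of limma 3.58.1 and DESeq2 1.42.0, filters, thresholds, the replicate block and leaving out each library.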

Additional observations from a re-analysis of the deposited data

Results flagged for a closer look

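Within the DIO + DHA group, 3 of the 44 genes had a library that stood apart from the other 4, with a gap to the nearest of them above 0.71 of the range of the group (Dixon's 95% critical value for 5 samples), where chance flags about 1 in 20 genes. Hk1 was at 0.218 CPM in replicate 6, against 1.87 CPM in the nearest library and 2.35 CPM at the other end (gap 0.778 of the range), and the library held 1 count of it. Eno1 was at 116 CPM in the same replicate 6, against 137 CPM in the nearest library and 145 CPM at the other end (0.716). Eno3 was at 55.3 CPM in replicate 4, against 43.0 CPM in the nearest library and 38.5 CPM at the other end (0.731), and all of these values lay above the highest DIO library at 7.21 CPM. Leaving out replicate 6 turned the sign of the uncalled log2 fold change of Hk1, from -0.24 to 0.08. Causes were not tested.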

How the results depend on the processing

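Over 20 alternatives, 13 of the 20 called genes kept their call in every fit that tested them, 7 lost it in at least 1 (Fbp2, Hk2, Gapdh, Ldhd, Gys2, Pygl and Gbe1) and 0 changed sign. Of the 24 genes not called, 3 gained a call in at least 1 alternative (Pfkl, Pfkfb3 and Tpi1) and 12 changed sign. With at least 10 counts required in every library, 8 genes of the group and 8 of the wider list were higher, a filter that by construction leaves out genes near 0 in the DIO group. Leaving out 1 library gave 12 to 14 higher and 3 to 7 lower genes of the group, the 3 without DIO replicate 4, and 9 to 13 higher and 8 to 12 lower genes of the wider list. A log-odds B above 0 in limma-voom, the rule of the study's methods, left 10 higher and 4 lower, and the DESeq2 Wald test 12 and 5. With the replicate block, 13 were higher and 5 lower in the group, and Hk2 (adjusted p = 0.0616) and Pygl (0.0855) lost their calls by edgeR. Deviations of same-numbered mice from their group means correlated at -0.013, -0.013 and -0.011, and those of other pairs at -0.059 to 0.062. These values show no sign of pairing by number. Being deviations from means of few mice, they cannot exclude it. Depth limits genes with few counts in the DIO libraries (Pgam2, Fbp2, Ppp1r3g and Hk2), whose ratios are known only within their counting intervals.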
